A study of Mus musculus with 18 samples.

Results

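Type I interferon-stimulated effector genes encode the proteins that cells make in answer to interferon alpha and beta, and they were read here in mouse pancreatic islets. A list of 42 such genes was given by name. It was chosen with earlier results of these data known, so its counts are no independent test. The list was looked up among the 22180 genes that the arrays measured through a probe set with exactly 1 gene symbol. Of the 42 genes, 38 were measured. Oas1a, Dtx3l and Ifi27l2a had only probe sets shared with another symbol, and Ifi44 was not found in the annotation used here. No filter on low values was applied, so all 38 genes entered every test.

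Islets were taken at 16 weeks of age from C57BL/6 mice of both sexes, and 18 single-colour Affymetrix arrays fell into 6 groups of 3. The TRAF2 knockouts and the TRAF3 knockouts were RIPCre mice homozygous for a loxP-flanked TRAF2 or TRAF3 gene (loxP/loxP), in which a rat insulin promoter, active in beta cells, drives the Cre recombinase, and the controls were floxed littermates. Each genotype was kept on chow or given a high-fat diet (HFD, 45% of the energy as fat) for 8 weeks from 8 weeks of age. By this design the other islet cells of a knockout are meant to keep the targeted gene, which was not tested here. The labels do not say whether a sample is 1 animal or a pool.

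Interferons bind a receptor made of IFNAR1 and IFNAR2, which starts JAK kinases, and these modify STAT2. A complex of STAT2 and IRF9 binds interferon-stimulated response elements in promoters, switching on effectors that block viral entry, RNA, translation and release. TRAF2 and TRAF3 are adaptor proteins that keep the kinase NIK, and with it non-canonical NF-kB signalling, at low levels, and TRAF3 also serves in the signalling from nucleic acid sensors to interferon genes. Beta cells are known to express interferon-stimulated genes when interferon reaches them.

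Short stretches of the promoters are shown for 11 genes, to make visible the letters that members of such a list have in common upstream of their start. RefSeq windows of 300 bases (250 before the annotated start and 50 after it, mouse build GRCm38.p6) were found for 27 of the 38 measured genes. The letters GAAA, any 2 bases and GAAA again, a core of the interferon-stimulated response element, were searched on both strands, so that TTTC, any 2 bases and TTTC counts too. They occurred in windows of 13 of these 27 genes (48.1%), and in 3.99% of the 27025 genes with such a window. In the sequences below, written 5′ to 3′ on the gene's strand, capitals mark these letters and where matches overlap they run together.
Bst2, chr8:71537567-71537616, minus strand: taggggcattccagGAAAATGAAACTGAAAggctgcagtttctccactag
Oas1g, chr5:120887614-120887645, minus strand: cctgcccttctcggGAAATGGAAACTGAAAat
Isg15, chr4:156200855-156200904, minus strand: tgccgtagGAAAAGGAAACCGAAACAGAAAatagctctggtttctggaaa
Ifit1, chr19:34640784-34640833, plus strand: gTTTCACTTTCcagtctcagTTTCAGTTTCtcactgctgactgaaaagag
Ddx60, chr8:61928048-61928086, plus strand: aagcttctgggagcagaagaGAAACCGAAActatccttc
Trim30a, chr7:104465200-104465249, minus strand: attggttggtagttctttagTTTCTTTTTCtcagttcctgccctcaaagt
Rsad2, chr12:26456543-26456592, minus strand: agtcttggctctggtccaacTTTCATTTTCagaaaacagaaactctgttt
Oas3, chr5:120777705-120777754, minus strand: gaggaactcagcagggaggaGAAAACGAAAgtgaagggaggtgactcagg
Slfn5, chr11:82951927-82951976, plus strand: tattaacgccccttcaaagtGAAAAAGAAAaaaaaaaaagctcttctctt
Ifit3, chr19:34583387-34583436, plus strand: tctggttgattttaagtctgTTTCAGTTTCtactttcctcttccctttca
Slfn8, chr11:83020829-83020878, minus strand: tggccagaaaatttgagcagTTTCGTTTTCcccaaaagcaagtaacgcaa
Isg15 carried 3 overlapping matches in a row, and Bst2 and Oas1g 2 each. Eif2ak2 and Ifih1 had the letters only after the start. The list of printed genes holds Slfn5, Ifit3 and Slfn8, which did not pass the test described next, so the letters were found on both sides of it: in 10 of the 23 genes with a window that rose and in 3 of the other 4. The letters TTCNNNGAA of a STAT element were in windows of Bst2, Eif2ak2, Ifi35 and Ifit2, 14.8% of the 27 genes against 9.55% of all genes with a window. The kappaB letters GGGA, any base and TTTCC, searched on both strands, were in none of the 27 and in 0.466% of all genes.

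Facts that concern all arrays are few. Array medians of the log2 value lay between 4.80 and 4.96, and arrays of a group correlated with each other at 0.960 to 0.993. The Traf2 probe set averaged 7.18 ± 0.15 (SD, n = 3) in chow control islets and 7.32 ± 0.16 in those labelled TRAF2 knockout on chow, a log2 difference of 0.14 ± 0.14 (SE) with an adjusted p of 0.980 in limma, and 0.17 ± 0.14 (adjusted p = 0.975) on HFD. It therefore did not separate knockouts from controls. Whether it lies in the floxed part is not given in the sources used here, so the groups are called by their labels. Chow TRAF2 knockout 1 and HFD TRAF3 knockout 2 stood apart by their lymphocyte markers, with summed linear values of 5162 and 4038 against 519 to 598 in the chow controls. Some results that rest on them are given without them below. The HFD TRAF3 knockout calls of Jak2, Socs3, Ticam1, Mavs and Map3k14 are given only with all arrays. By a score of Xist minus Y-linked genes, female arrays were 1 of 3 in each chow group, 3 of 3 in HFD controls and 2 of 3 in each HFD knockout group, so that comparisons of diets and of knockouts with HFD controls carry this imbalance. With the score as a covariate the counts given below for TRAF3 knockouts were 34 in place of 33 on chow, 33 in place of 32 for HFD against chow, and 25 in place of 23 for the dependence on diet.

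On chow the effector genes were higher in TRAF3 knockout islets than in control islets. Of the 38 measured genes, 33 rose and none fell, at a Benjamini-Hochberg adjusted p under 0.05 in limma over all genes, where 6.33% of all genes rose. All 38 log2 differences were above 0, with a median of 2.05 (4.13-fold) against a median of -0.01 over all genes. In 36 of the 38 genes the lowest TRAF3 knockout array lay above the highest control array, as it did in 15.9% of all genes. The size ran from 0.14 for Tor3a to 4.12 for Zbp1. The knockout arrays were close to each other: a score that averages the deviation of each of the 38 genes from its own mean over 18 arrays was 1.68, 1.61 and 1.69 for the TRAF3 knockouts on chow against -0.54, -0.02 and -0.41 for the chow controls. On HFD the same score in the TRAF3 knockouts was -0.48, -0.35 and -0.63, among the values of the HFD controls (-0.42, -0.24 and -0.81).

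**Figure D1:**
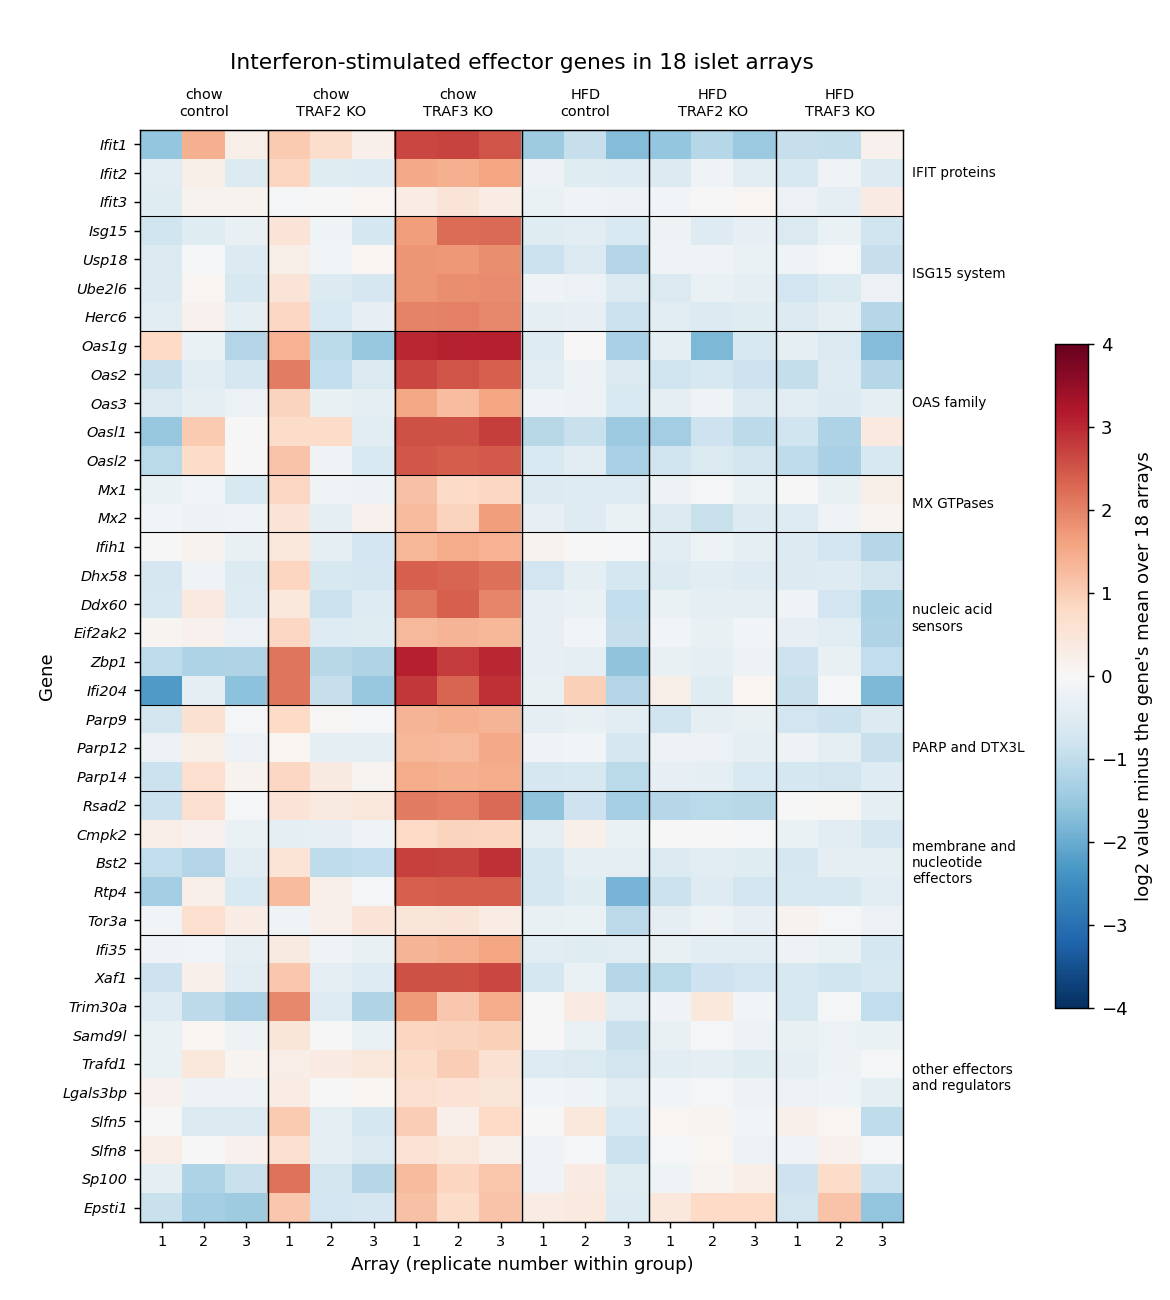
Deviation of each of the 38 measured effector genes (rows) from its own mean over the 18 arrays (columns, by group), on the log2 scale. The 3 chow TRAF3 knockout arrays are high in nearly every row, with mean deviations of 1.61 to 1.69, and chow TRAF2 knockout 1 is high in part of the rows.

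The ISG15 system attaches ISG15, a small ubiquitin-like protein, to other proteins. All 4 of its measured genes rose in chow TRAF3 knockouts. Isg15 itself read 3.47, 3.79 and 4.0 in chow controls and 5.96, 6.53 and 6.55 in chow TRAF3 knockouts. The groups did not overlap, and the difference was 2.59 ± 0.25 (SE), or 6.03-fold, with an adjusted p of 7e-05. The mean of its chow controls lay below the lowest array median, so that the size of this fold is uncertain, as for Ifit2, Oas1g, Mx1, Mx2, Ifi204 and Trim30a. Ube2l6, the enzyme that carries ISG15 before transfer, went from 7.05, 7.66 and 6.94 to 9.36, 9.43 and 9.47 (2.20 ± 0.26, adjusted p = 0.000351). Its 3 knockout arrays lay within 0.11 of each other and far above every control array. Usp18, the protease that removes ISG15 and also restrains the interferon receptor, rose by 2.20, and Herc6, a ligase for ISG15 in the mouse, by 2.18.

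OAS enzymes sense double-stranded RNA and make the oligoadenylates that start RNase L. All 5 measured members rose, by 1.86 (Oas3) to 3.27 (Oas1g), with 3.21 for Oas2, 2.77 for Oasl1 and 2.55 for Oasl2. Oas1g was 5.74, 4.69 and 3.78 in chow controls and 7.95, 8.02 and 8.06 in chow TRAF3 knockouts. The controls spread over almost 2 log2 units while the knockouts lay within 0.11, and the difference was 3.27 ± 0.65 (adjusted p = 0.00566). Oas1a has no value of its own here and shares a probe set with Oas1g, so that the signals of these related neighbours may not be separate. Oas2 went from 4.96, 5.39 and 5.17 to 8.53, 8.37 and 8.24, a difference of 3.21 ± 0.50 (9.23-fold, adjusted p = 0.00171), with no overlap. Leaving out chow control 1 lowered Oasl1 from 2.77 to 2.10 and leaving out chow control 2 raised it to 3.38, and it passed both times.

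The 6 nucleic acid sensors all rose, with a median of 2.59. Zbp1, a receptor for Z-form nucleic acids that can start cell death, was 5.22, 5.01 and 5.02 in chow controls and 9.33, 9.04 and 9.25 in chow TRAF3 knockouts. This was the largest difference in the list, 4.12 ± 0.61 (17.4-fold, adjusted p = 0.00116). Ifi204, a DNA sensor, was 3.15, 5.05 and 3.78 in the controls and 8.24, 7.73 and 8.34 in the knockouts (4.11 ± 0.77, adjusted p = 0.00422). Its controls were spread widely and none came near a knockout array. Among the RNA sensors of the RIG-I type, Dhx58 rose by 2.76 and Ifih1 by 1.47, and the related helicase Ddx60 by 2.42. Eif2ak2, the kinase PKR that halts translation, rose by 1.31.

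IFIT proteins bind viral RNA and block its translation, and 2 of the 3 rose. Ifit1 was 6.14, 9.12 and 7.91 in chow controls and 10.35, 10.37 and 10.21 in chow TRAF3 knockouts (2.59 ± 0.52, adjusted p = 0.00569). The control arrays ranged over almost 3 units, so 1 array weighed on the size: it was 1.80 when chow control 1 was left out and 3.28 when chow control 2 was, and passed both times. Ifit2 went from 4.36, 5.03 and 4.23 to 6.29, 6.21 and 6.37 (1.75 ± 0.30, adjusted p = 0.00263). Ifit3, the direct neighbour of Ifit2, read 5.96, 6.56 and 6.58 in controls and 6.73, 6.94 and 6.74 in knockouts. Its groups did not overlap, but the difference of 0.44 ± 0.18 did not pass (adjusted p = 0.137).

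The MX GTPases trap viral capsids. In the C57BL/6J annotation of RefSeq both mouse genes are transcribed pseudogenes. Mx2 was 3.99, 3.90 and 3.93 in chow controls and 5.38, 4.99 and 5.79 in chow TRAF3 knockouts (1.45 ± 0.22, adjusted p = 0.00152). Mx1 was 3.38, 3.56 and 3.04 in controls and 4.82, 4.42 and 4.48 in knockouts (1.24 ± 0.23, adjusted p = 0.00357). Both pairs of groups were separate, at low signals.

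Of the membrane and nucleotide effectors, 4 of 5 measured genes rose. Bst2 (tetherin), which holds budding virus particles at the cell surface, was 5.34, 5.14 and 5.90 in chow controls and 9.06, 9.02 and 9.24 in chow TRAF3 knockouts. It had the smallest adjusted p of the list (3.64 ± 0.31, 12.5-fold, adjusted p = 3.26e-05). Rtp4, a chaperone of membrane receptors, went from 5.80, 7.36 and 6.53 to 9.54, 9.59 and 9.58 (3.00 ± 0.39, adjusted p = 0.000598). Rsad2 (viperin), which makes a nucleotide that ends RNA chains, went from 7.35, 8.85 and 8.14 to 10.26, 10.22 and 10.46 (2.20 ± 0.27, adjusted p = 0.000439). Its controls were spread over 1.5 units and stayed below every knockout array. Cmpk2, a nucleotide kinase next to Rsad2 on the chromosome, rose by only 0.80 ± 0.16 (adjusted p = 0.00633). Tor3a, a torsin ATPase, was 8.91, 9.69 and 9.30 in controls and 9.49, 9.53 and 9.30 in knockouts. These groups overlapped, and the difference of 0.14 ± 0.23 did not pass (adjusted p = 0.803) and became -0.06 without chow control 1.

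The 3 measured ADP-ribosyltransferases rose by similar amounts, 1.44 for Parp9, 1.45 for Parp12 and 1.48 for Parp14. Parp14 was 6.83, 8.35 and 7.82 in chow controls and 9.18, 9.10 and 9.16 in chow TRAF3 knockouts. Parp12 was 9.39, 9.85 and 9.38 in controls and 10.94, 10.91 and 11.12 in knockouts. Neither pair of groups overlapped, and the adjusted p was 0.00413 for Parp14 and 0.000778 for Parp12. The remaining 10 effectors and regulators were mixed, with 7 that rose. Xaf1, a protein that opposes an inhibitor of apoptosis, went from 5.60, 6.63 and 5.96 to 8.96, 8.96 and 9.09 (2.94 ± 0.34, adjusted p = 0.00031). Trim30a, a TRIM family protein, went from 3.83, 3.28 and 3.03 to 6.05, 5.40 and 5.83 (2.38 ± 0.55, adjusted p = 0.0119). Neither gene overlapped between groups. Epsti1 rose by 2.24, Ifi35 by 1.67, Samd9l by 1.04, Trafd1 by 0.68 and Lgals3bp, a secreted glycoprotein, by 0.64. The other probe sets of Ifi35 and Lgals3bp gave differences of 0.10 and 0.90, and those of Sp100 gave 2.59, 0.33 and 0.23. Slfn8, a Schlafen protein, was 5.75, 5.48 and 5.67 in controls and 6.08, 5.96 and 5.69 in knockouts, which overlapped (0.28 ± 0.26, adjusted p = 0.605). Slfn5 (1.03 ± 0.41, adjusted p = 0.122) and Sp100, a nuclear body protein (1.91 ± 0.62, adjusted p = 0.0608), had groups that did not overlap but did not pass.

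**Figure D2:**
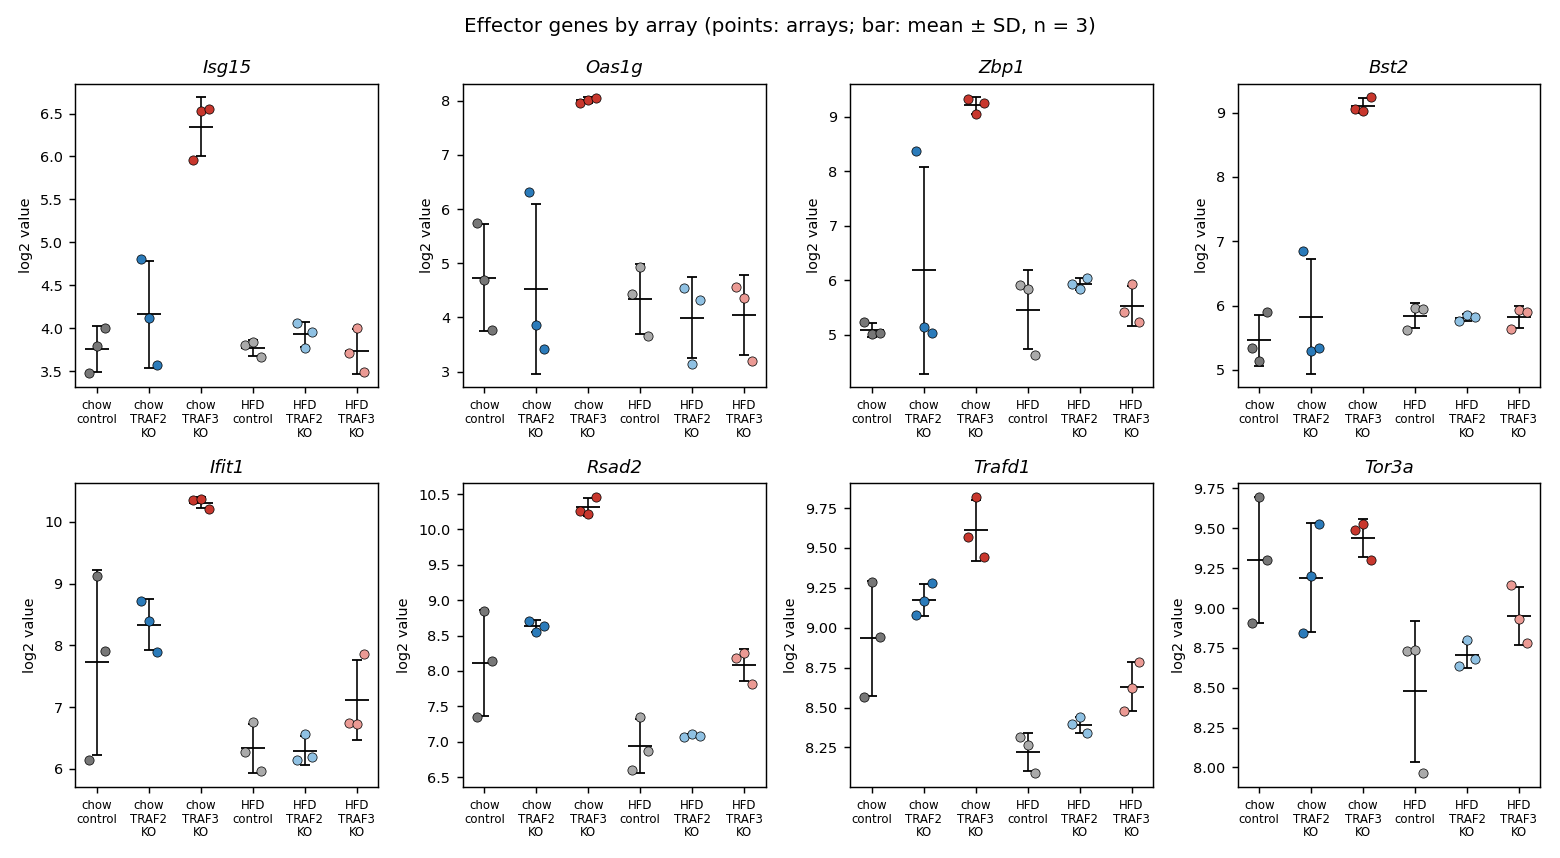
Deposited log2 value (y axis) of 8 effector genes in each array of the 6 groups (x axis), with the mean and SD of 3 arrays. The chow TRAF3 knockout arrays stand above all chow controls for each gene but Tor3a, and for Rsad2, Trafd1 and Tor3a the HFD TRAF3 knockouts also lie above every HFD control.

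Of these 33 calls, 22 held under every one of 29 alternative settings in which the gene was tested. The count stayed between 30 and 35 when any 1 array was left out, and was 35 without both lymphocyte-rich arrays. With a score of duct markers as a covariate it was 23, with a median difference of 1.63. The median difference was 1.74 with a score of lymphocyte markers as the covariate.

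Other cell markers moved alongside these genes on chow. Of 9 measured beta cell markers, 7 fell in chow TRAF3 knockouts (Ins2, Pdx1, Mafa, Nkx6-1, Slc2a2, Ucn3 and Slc30a8), where 4.69% of all genes fell, with summed linear values of 12999 to 17387 against 22942 to 31613 in chow controls. In bulk islets, fewer cells of a type and less RNA per cell cannot be told apart. Of all genes, 6.33% rose there. Of 18 macrophage and other myeloid markers, 3 rose: Cd68 by 2.51 ± 0.44, Cd14 by 2.03 ± 0.52 and Fcer1g by 1.28 ± 0.25. The summed myeloid level was 3235 to 3653 against 1644 to 1855 in controls, and Itgax, Cd163, Ccr2, S100a8 and S100a9 had means below the lowest array median. Of 8 duct markers, Anxa3 alone passed (2.71 ± 0.53), with a sum of 3948 to 6327 against 2009 to 3880 and Cftr below the lowest array median. The part of these cells in the rise of the effector genes was not tested beyond the duct covariate.

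None of 14 lymphocyte markers passed in chow TRAF3 knockouts, where the sum was 722 to 1605 and Cd3d and Cd8a were below the lowest array median. The lymphocyte-rich arrays were chow TRAF2 knockout 1, with a sum of 5162, and HFD TRAF3 knockout 2, with a sum of 4038. Their effector scores were 0.82 and -0.35, each the highest of its own group. The part of lymphocytes in these scores was not tested. Plasmacytoid dendritic cells are known as strong makers of interferon: of 8 markers, Siglech and Cox6a2 fell and none rose, and Siglech and Ccr9 were below the lowest array median. In chow controls these 8 markers summed to 8422 to 10916, against 519 to 598 for the 14 lymphocyte markers. The list may therefore not read these cells alone, and their level cannot be told from it. Among other markers, Ghrl and Ttr of 6 other endocrine markers fell, Rgs5 of 10 stromal markers fell, and none of 12 acinar or 8 endothelial markers passed.

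**Figure D3:**
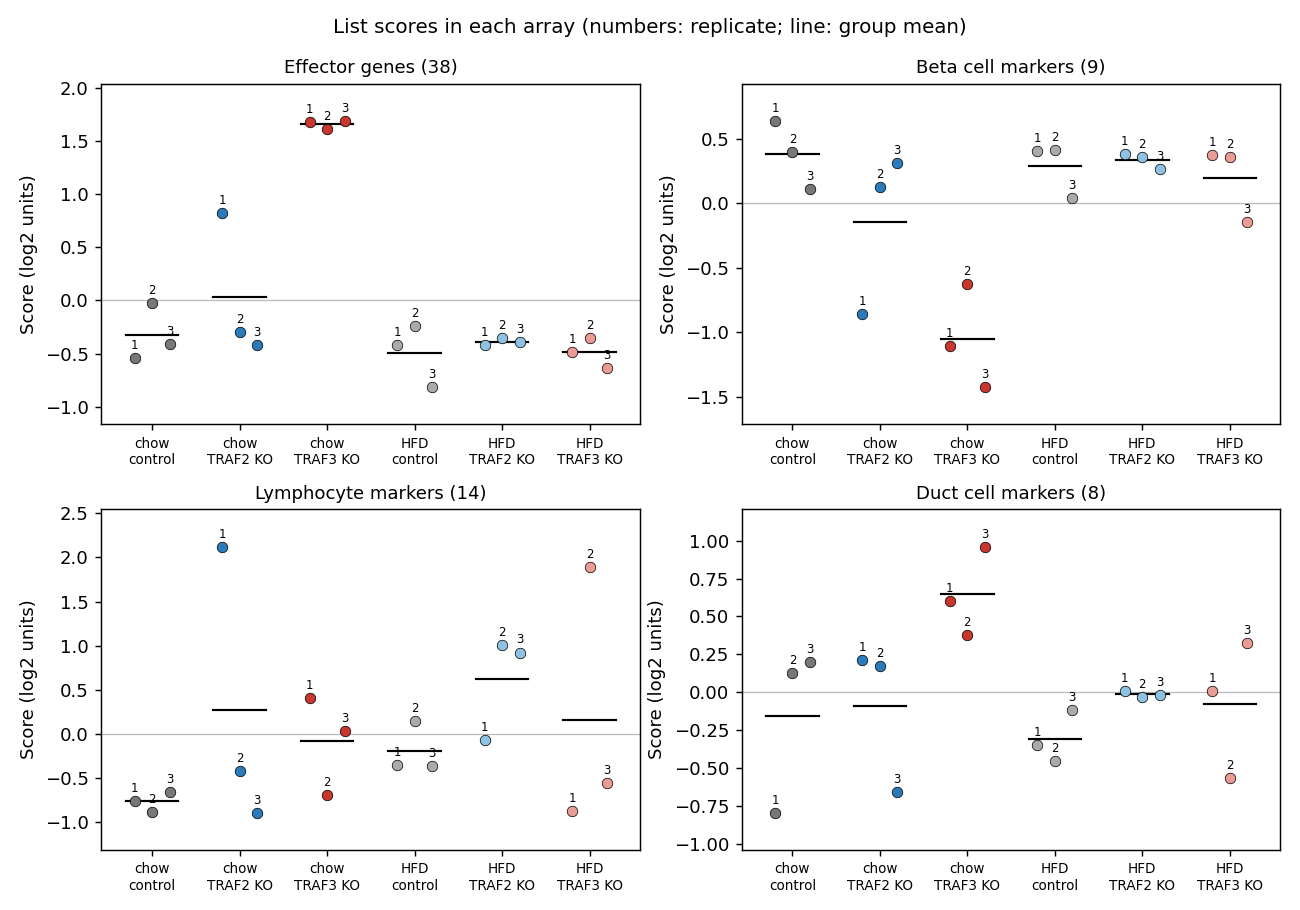
Mean deviation (log2, y axis) of 4 gene sets in each of the 18 arrays (x axis, by group): the 38 effector genes, 9 beta cell markers, 14 lymphocyte markers and 8 duct cell markers. The effector score is 1.61 to 1.69 in chow TRAF3 knockouts, where the beta cell score is -1.42 to -0.62, and the lymphocyte score is highest in chow TRAF2 knockout 1 (2.12) and HFD TRAF3 knockout 2 (1.89).

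In islets labelled TRAF2 knockout on chow, no effector gene passed against the same controls, where 0.298% of all genes passed. At an unadjusted p under 0.05 there were 4: Rtp4 (1.06), Mx1 (0.49) and Usp18 (0.48) above control and Cmpk2 (-0.35) below it. The median difference was 0.32, and the smallest adjusted p of limma was 0.574. Epsti1 was the only gene above all controls in each array, a separation that 4.68% of all genes had. This group was not uniform. Chow TRAF2 knockout 1 had an effector score of 0.82, against -0.30 and -0.42 in the other arrays of its group. Zbp1 was 8.36 in it and 5.13 and 5.03 in the others, Ifi204 was 7.57 against 4.49 and 3.90, and Oas2 was 7.90 against 4.87 and 5.28. Trim30a, at 6.24, was even above all chow TRAF3 knockout arrays, as were Sp100 (8.70), Slfn5 (7.04) and Slfn8 (6.14). In 34 of the 38 genes this array lay above the mean of the others of its group, by a median of 1.12 against -0.07 over all genes. The gap exceeded 1 in 21 of the 38, against 4.15% of all genes. The lymphocyte score of this array, 2.12, was the highest of all 18 arrays and its myeloid score of 0.30 the highest on chow. Its beta cell score was low, at -0.86, while chow TRAF2 knockouts 2 and 3 had 0.12 and 0.31. Its stromal score was 0.37, where those arrays had -0.76 and -0.75. By the sex score (7.46, with -3.23 and -3.85 for those arrays) it was also the only female chow TRAF2 knockout. The part of these cell types and of sex in its effector levels was not tested. Without this array the count of effector genes passing in chow TRAF2 knockouts was still 0.

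The knockouts were compared directly on chow. Of the 38 genes, 25 were higher in TRAF3 than in TRAF2 knockouts and none was lower, where 1.44% of all genes were higher. All 38 differences were above 0, with a median of 1.58, and in 31 genes the groups did not overlap (11.4% of all genes). Oas1g differed by 3.48 ± 0.65 (adjusted p = 0.0162) and Bst2 by 3.27 ± 0.31 (adjusted p = 0.000146). For Bst2 the TRAF2 knockouts read 6.85, 5.30 and 5.33, all below the 9.02 of the lowest TRAF3 knockout. Chow TRAF2 knockout 1 set much of the spread: without it 34 genes were higher, and the difference of Zbp1 went from 3.03 to 4.12, of Oas2 from 2.36 to 3.30 and of Oas1g from 3.48 to 4.38. The count was 12 without chow TRAF2 knockout 3 or without chow TRAF3 knockout 3, and 13 without chow TRAF2 knockout 2 or without chow TRAF3 knockout 1. It was 2 when only these groups entered the fit. Usp18 was the only gene that passed in every setting.

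On HFD the TRAF3 knockout islets did not have this pattern. Rsad2 alone passed among the 38 genes, where 1.68% of all genes were higher, and the median difference was -0.03. Rsad2 was 6.59, 7.36 and 6.87 in HFD controls, 7.06, 7.11 and 7.09 in HFD TRAF2 knockouts and 8.18, 8.25 and 7.82 in HFD TRAF3 knockouts. The TRAF3 knockouts lay above all other HFD arrays, by 1.14 ± 0.27 against control (2.21-fold, adjusted p = 0.0346). That call is narrow: the adjusted p was 0.123 without HFD TRAF3 knockout 2, 0.102 without HFD TRAF3 knockout 1, and 0.121 and 0.112 without HFD control 1 and 3. It was 0.114 without both lymphocyte-rich arrays. It was 0.0502 to 0.0516 without any 1 of the HFD TRAF2 knockouts or without chow TRAF3 knockout 1, which act through the pooled spread. Cmpk2, its neighbour, differed by -0.31 ± 0.16 (adjusted p = 0.398).

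No other gene that had been high on chow passed on HFD. In limma 5 of the 38 genes, Rsad2 among them, had an unadjusted p under 0.05. Of the 38 differences, 17 were above 0 and 21 below. Trafd1 was 8.31, 8.26 and 8.09 in HFD controls and 8.48, 8.62 and 8.78 in HFD TRAF3 knockouts. Mx1, at low signals, was 3.10, 3.13 and 3.13 in HFD controls and 3.67, 3.37 and 3.88 in HFD TRAF3 knockouts. Both lay above every HFD control, and Ifit1 differed by 0.78. Isg15 was 3.80, 3.84 and 3.67 in HFD controls and 3.71, 4.01 and 3.49 in HFD TRAF3 knockouts. Zbp1 was 5.90, 5.84 and 4.62 in HFD controls and 5.41, 5.93 and 5.23 in HFD TRAF3 knockouts. Bst2 was 5.61, 5.96 and 5.95 in HFD controls and 5.63, 5.94 and 5.91 in HFD TRAF3 knockouts. The groups of these 3 genes overlapped. Ifih1 was 8.35, 8.22 and 8.12 in HFD controls and 7.66, 7.43 and 7.05 in HFD TRAF3 knockouts. It was thus below control in each array, by -0.85 ± 0.23, but did not pass (adjusted p = 0.0659). Groups did not overlap in 4 genes on the higher side and 2 on the lower, against 8.61% and 7.98% of all genes. Among cell markers, Adgre1, Cd163 and Mrc1 of 18 myeloid markers and Acta2 of 10 stromal markers were lower in HFD TRAF3 knockouts than in HFD controls. Of all genes, 0.848% were lower there. None of 9 beta cell or 14 lymphocyte markers passed. The part of these markers in the effector levels was not tested.

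In islets labelled TRAF2 knockout on HFD no effector gene passed, where 0.252% of all genes did. Only Usp18 had an unadjusted p under 0.05, with a difference of 0.66 and an adjusted p of 0.420 in limma. The 3 arrays had effector scores of -0.42, -0.35 and -0.39. Against each other on HFD, the knockouts differed in none of the 38 genes, where 1.05% of all genes passed, with 3 genes at an unadjusted p under 0.05 and a smallest adjusted p of 0.109. Leaving out chow control 1 or chow control 2, which act through the pooled spread, gave 1 gene there.

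**Figure D4:**
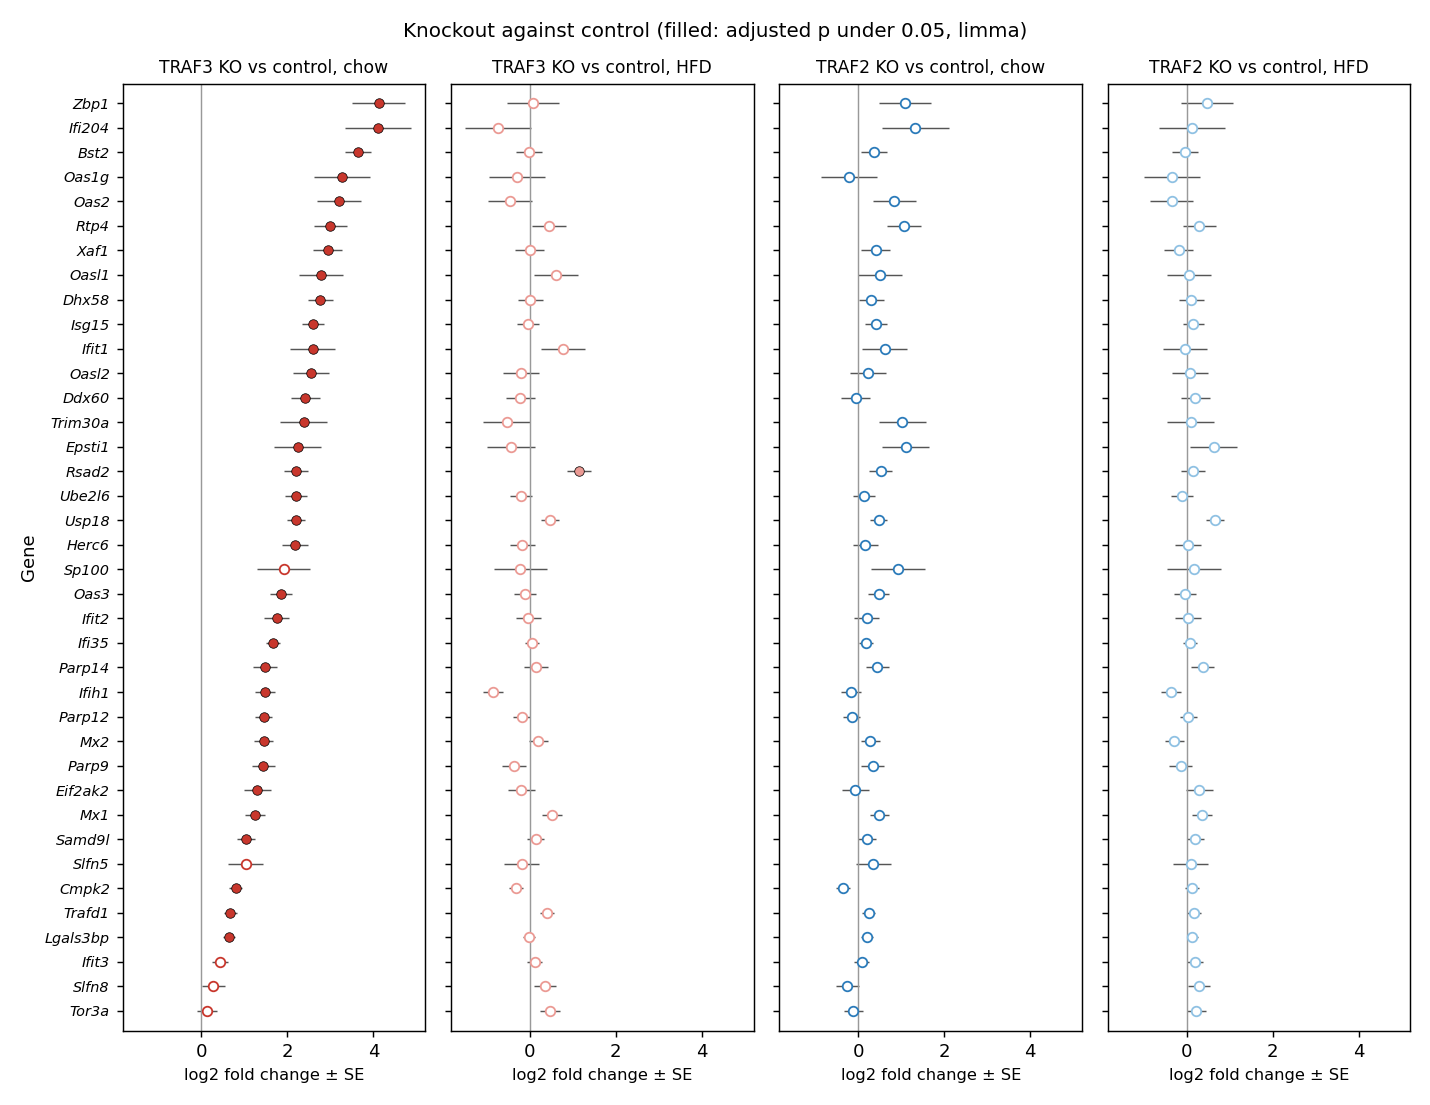
Log2 difference of each of the 38 effector genes between knockout and control in 4 panels (TRAF3 and TRAF2 knockout, on chow and on HFD). Filled points passed at an adjusted p under 0.05, and bars are limma's SE. The TRAF3 knockout on chow has 33 filled points, TRAF3 on HFD has 1 (Rsad2) and the TRAF2 panels have none.

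Within the TRAF3 knockouts, HFD arrays were compared with chow arrays. Of the 38 genes, 32 were lower on HFD and none was higher, where 6.01% of all genes were lower. All 38 differences were below 0, with a median of -2.11, and 35 genes had groups that did not overlap (14.8% of all genes were separate in this direction). Oas1g fell from 7.95, 8.02 and 8.06 to 4.56, 4.36 and 3.20, a change of -3.97 ± 0.65 (adjusted p = 0.00226). Zbp1 changed by -3.68 ± 0.61 (adjusted p = 0.0024) and Ifit1, which fell to 6.75, 6.72 and 7.86, by -3.20 ± 0.52 (adjusted p = 0.00197). Even the HFD array of Ifit1 that was highest lay 2.35 below the lowest chow array. The genes that did not pass were Epsti1, Sp100, Slfn5, Tor3a, Ifit3 and Slfn8. All 32 had also risen against control on chow, a count over comparisons that share the chow TRAF3 knockout arrays. The beta cell markers that were low on chow were higher on HFD, 7 of 9 (2.66% of all genes). Cd68 alone of 18 myeloid markers was lower, with a median of 0.17 over the 18, and Anxa3 alone of 8 duct markers. Cdh5 and Esam of 8 endothelial markers were lower too. Ghrl and Ttr of 6 other endocrine markers and Siglech and Cox6a2 of 8 plasmacytoid dendritic cell markers were higher. The part of all these markers in the fall of the effector genes was not tested. Without HFD TRAF3 knockout 2, the lymphocyte-rich array, 31 genes were lower.

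In control islets Trafd1 alone was lower on HFD, where 0.361% of all genes were lower. Trafd1, a feedback regulator of innate signalling, was 8.57, 9.29 and 8.94 in chow controls and 8.31, 8.26 and 8.09 in HFD controls. The groups were separate and the change was -0.71 ± 0.16 (adjusted p = 0.0483). Of the 18 myeloid markers, 8 were higher in HFD than in chow controls (sums of 4006 to 7452 against 1644 to 1855), where 0.523% of all genes were higher, and 7 were higher in HFD than in chow TRAF2 knockouts, where 0.884% were. Acta2 was higher in both, and the part of these markers was not tested. The Trafd1 call was lost without any 1 of 15 arrays, and 5 genes were called without chow control 1. The median over the 38 genes was -0.22, with 7 genes at an unadjusted p under 0.05. In TRAF2 knockouts Rsad2 was lower on HFD, from 8.71, 8.54 and 8.64 to 7.06, 7.11 and 7.09 (-1.54 ± 0.27, adjusted p = 0.00862), and so was Trafd1, from 9.08, 9.17 and 9.28 to 8.40, 8.44 and 8.34 (-0.78 ± 0.16, adjusted p = 0.0165). Arrays of each diet lay close together for both genes, and 1.08% of all genes were lower. That count of 2 was kept without chow TRAF2 knockout 1, but was 4 without chow control 1, and 1 without chow TRAF2 knockout 3 or without any HFD TRAF2 knockout.

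The dependence of the TRAF3 knockout difference on diet was itself tested, as the difference on HFD minus the difference on chow. It was negative and passed in 23 of the 38 genes and passed above 0 in none, where 3.29% of all genes passed below 0. Among cell markers in the same test, 7 of 18 myeloid markers passed below 0 (Adgre1, Cd68, Fcer1g, Tyrobp, Cd163, Mrc1 and S100a8), and 3 of 9 beta cell markers passed above 0 (Pdx1, Mafa and Slc30a8), where 2.52% of all genes did. Their part in the effector genes' diet dependence was not tested. The median over the 38 effector genes was -1.89, and without HFD TRAF3 knockout 2 the count was 21. Ifi204 (-4.85 ± 1.09, adjusted p = 0.0203), Zbp1 (-4.05 ± 0.86, adjusted p = 0.016), Bst2 (-3.66 ± 0.43, adjusted p = 0.00138) and Oas2 (-3.66 ± 0.71, adjusted p = 0.0119) had the largest. In Isg15 it was -2.63 ± 0.36 (adjusted p = 0.00385). All 4 genes of the ISG15 system, 5 of 6 sensors and 4 of 5 OAS genes passed. Ifit1 (-1.81, adjusted p = 0.158) and Rsad2 (-1.06, adjusted p = 0.117) did not. In limma no gene of all 22180 passed for the TRAF2 knockout, and none of the 38 had an unadjusted p under 0.05 there.

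The pathway around these genes was read from further lists. Ligands came first: none of 14 measured type I interferon genes and none of 3 others passed in chow TRAF3 knockouts, where 6.33% of all genes rose and 4.69% fell. Ifnb1 was 2.79, 2.87 and 3.24 in chow controls and 2.70, 2.84 and 2.72 in chow TRAF3 knockouts (-0.21 ± 0.16, adjusted p = 0.470), and Ifng differed by -0.13 (adjusted p = 0.719). Of the 14 type I ligands, 11 had chow control means below the lowest array median, so that a change in them may not have been detectable, and Ifng lay near the array medians. Of 6 receptor genes, Ifnar2 (0.53 ± 0.15, adjusted p = 0.0313) and Ifngr2 (1.04 ± 0.22, adjusted p = 0.00824) rose, and Ifnar1 did not pass (0.26, adjusted p = 0.516).

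Of 11 measured JAK, STAT and IRF genes, 3 rose in chow TRAF3 knockouts, all of them known carriers of the interferon response. Irf7, the factor that amplifies interferon production, was 6.44, 6.91 and 6.69 in chow controls and 11.03, 10.99 and 11.08 in chow TRAF3 knockouts, with 9.26, 6.46 and 6.33 for the TRAF2 knockouts on chow. It rose by 4.36 ± 0.54 (adjusted p = 0.000439), and the array high among the TRAF2 knockouts was again number 1. On HFD it was 6.61, 6.95 and 6.32 in TRAF3 knockouts, within the 6.00 to 7.22 of the controls. Stat2 went from 7.53, 7.79 and 7.51 to 9.47, 9.44 and 9.36 (1.82 ± 0.30, adjusted p = 0.00245). Irf9 went from 7.25, 8.18 and 7.60 to 9.42, 9.70 and 9.52 (1.87 ± 0.24, adjusted p = 0.000509). Both were separate from control on chow. On HFD, Jak2 (0.79 ± 0.14, adjusted p = 0.0064) and Irf1 (1.05 ± 0.25, adjusted p = 0.0327) were higher in TRAF3 knockouts, and neither had passed on chow. Irf1 read 8.54, 8.68 and 7.43 there against 7.37, 7.21 and 6.91 in HFD controls, so 1 of its arrays lay close to the controls.

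Of 12 sensors and adaptors upstream of interferon, Tlr3 (1.41), Tlr4 (1.16), Myd88 (0.95) and Ddx58 (1.14, the RNA sensor RIG-I) rose on chow. On HFD, Ticam1 was higher (0.90) and Mavs, the adaptor of the RNA sensors, lower (-0.60) in TRAF3 knockouts. Of 7 feedback inhibitors, Socs1 (0.75) and Tnfaip3 (1.5) rose and Pias1 fell (-0.51) on chow, and Socs3 (2.15 ± 0.29, adjusted p = 0.00118) and Tnfaip3 (1.97) were higher on HFD. On HFD, 2.52% of all genes passed in TRAF3 knockouts, with 0.848% lower.

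The non-canonical NF-kB genes, which TRAF2 and TRAF3 are known to restrain, were read as a set apart. Of 5 measured, 3 rose in chow TRAF3 knockouts (Nfkb2, Relb and Birc3) and 4 in HFD TRAF3 knockouts (with Map3k14, the gene of NIK). In chow TRAF2 knockouts Birc3 alone rose (0.99 ± 0.19, adjusted p = 0.0375), and Birc3 was lower on HFD than on chow in both knockouts. Nfkb2 was 6.16, 7.64 and 7.53 in chow controls and 8.58, 8.35 and 8.83 in chow TRAF3 knockouts. On HFD it was 6.56, 6.55 and 6.20 in controls and 7.94, 8.16 and 7.99 in TRAF3 knockouts. The groups were separate on both diets, by 1.48 ± 0.29 (adjusted p = 0.00517) and 1.59 ± 0.29 (adjusted p = 0.00696). Its dependence on diet was 0.12 ± 0.41 (adjusted p = 0.912), and none of the 5 genes passed that test. Without both lymphocyte-rich arrays, Nfkb2 still passed on HFD (1.53), while Relb (0.67) and Birc3 (0.66), and likewise Irf1 (0.82) and Tnfaip3 (1.60), did not. Irf7 had -4.38 ± 0.76 (adjusted p = 0.00762) in the test of diet dependence.

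**Figure D5:**
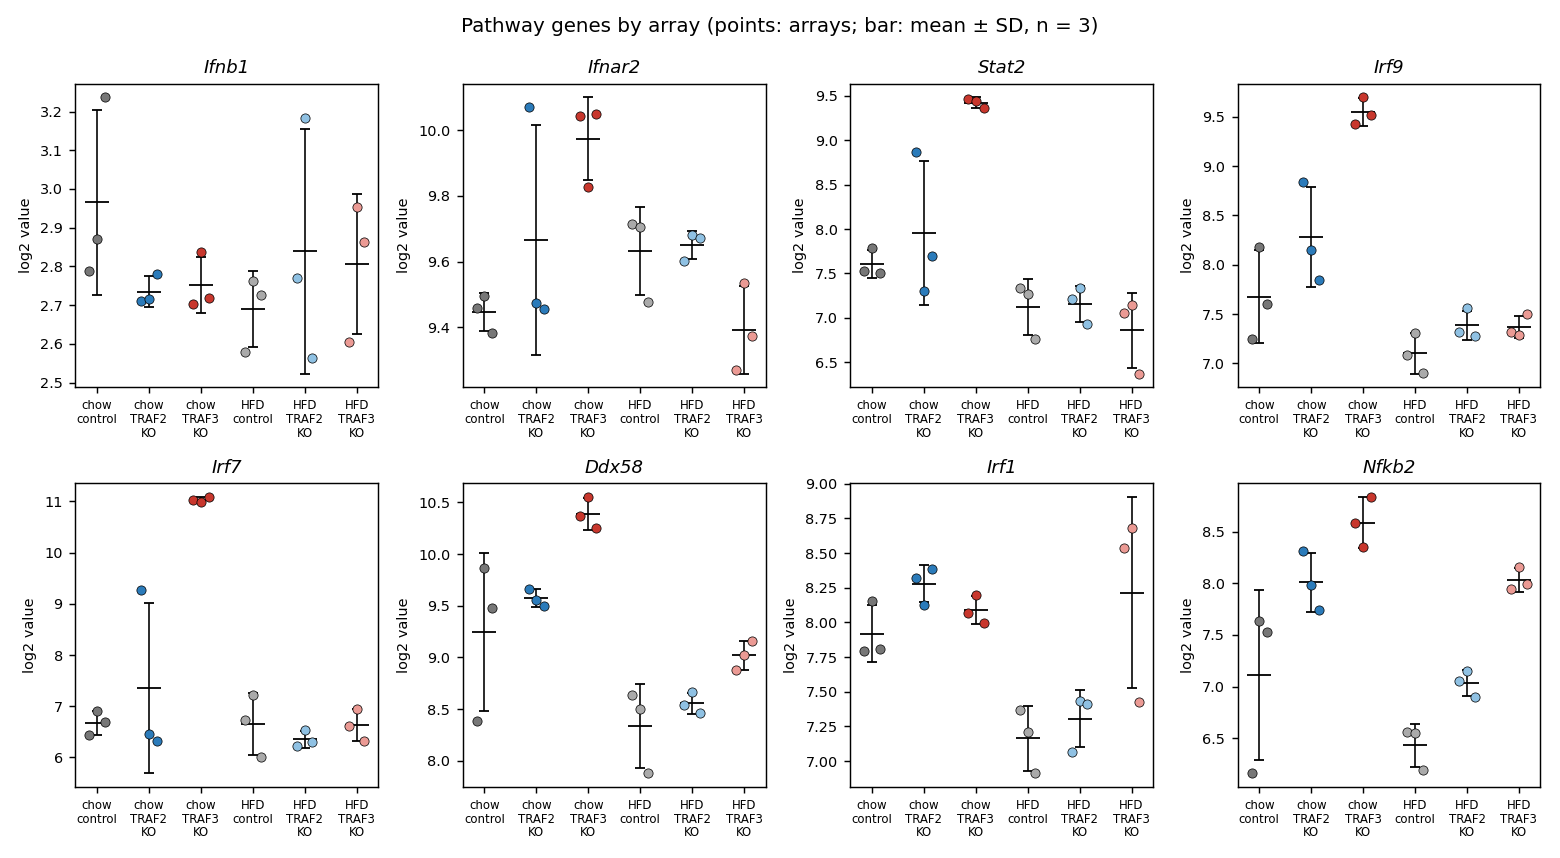
Deposited log2 value (y axis) of 8 pathway genes in each array of the 6 groups (x axis), with the mean and SD of 3 arrays. Stat2, Irf9 and Irf7 are high in chow TRAF3 knockouts only (Irf7 10.99 to 11.08) and, for Irf7 and Stat2, in chow TRAF2 knockout 1, whereas Nfkb2 is above its controls in TRAF3 knockouts on both diets.

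The effector genes moved with each other across arrays. Each gene's Pearson correlation with the mean of the other 37 had a median of 0.916 over 18 arrays, from 0.511 for Tor3a to 0.990, and 21 of the 38 were over 0.9. This describes 18 arrays whose largest differences lie between groups. Among genes outside the list, those most like the effector score were Rnf213 (r = 0.990), Irf7 (0.990), Gbp3 (0.986), Mlkl (0.979) and Tap1 (0.977), followed by Igtp, Nampt, H2-K1, Stat2 and Nmi at 0.960 to 0.963. In RefSeq the 42 listed genes lie on 14 chromosomes and form 5 pairs of direct neighbours. Within such pairs the changes on chow in TRAF3 knockouts could differ: 2.20 and 0.80 for Rsad2 and Cmpk2, 1.75 and 0.44 for Ifit2 and Ifit3, and 3.21 and 1.86 for Oas2 and Oas3.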

How the data were processed

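Total RNA of pancreatic islets (250 ng) was biotin-labelled and measured on 18 Affymetrix arrays, per the labels' protocols. The deposited values are on the log2 scale, 1 per probe set and array, and RMA and limma are named, without versions, per the submitters' processing notes. They were used as deposited. The table holds 41345 probe sets, and the platform's annotation gave 23521 of them a lone symbol, 1814 several symbols and 16010 no symbol. For a gene with several probe sets the one with the highest mean over the arrays was used.

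Group means of all 18 arrays were fitted with limma 3.58.1 in R 4.3.3 (lmFit, eBayes, 12 residual and 3.69 prior degrees of freedom). Tests of 11 contrasts were two-sided, with Benjamini-Hochberg adjustment over 22180 genes and a threshold of 0.05. SE is limma's moderated standard error and SD that of 3 arrays. TRAF2 and TRAF3 knockouts share controls. Nothing states that samples are separate animals, so p-values measure the spread between samples, which may be technical, and the number of arrays limits precision. The script was tested on simulated data.

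Genes given array by array are the 2 with the largest chow TRAF3 knockout change in each role, the 2 largest passing in each other comparison and the 3 smallest. Oasl1, Usp18, Cmpk2, Ifih1, Slfn5, Sp100 and the genes of chow TRAF2 knockout 1 were picked for remarks after their values were seen. Of the pathway lists, some fixed genes and those passing are named. The members and lists were chosen with earlier results of these data known. The TRAF3 transcript is not reported here. Deviations of same-numbered samples correlated at -0.55 to 0.53 between groups, with 16 of 45 correlations over 0.1. In 0 of 15 pairs of groups were all over 0.1, a rule that cannot exclude pairing in part of them. By the sex score, number 1 was the female array in each chow group. Alternatives were other scaling, filters, fits, covariates and left-out arrays. Promoter windows and gene neighbours are from RefSeq.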

Additional observations from a re-analysis of the deposited data

Results flagged for a closer look

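The difference between TRAF3 knockout and control islets was not the same on the 2 diets for 23 of the 38 effector genes, by limma's interaction test. The 5 largest were Ifi204 (-4.85), Zbp1 (-4.05), Bst2 (-3.66), Oas2 (-3.66) and Oas1g (-3.57), on the log2 scale as HFD minus chow. All 5 were higher in each chow TRAF3 knockout array than in every chow control array. No outlier test was made, since every group has 3 arrays.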

How the results depend on the processing

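Counts of effector genes passing in the TRAF3 knockout against control on chow (33), its diet dependence (23), HFD against chow in TRAF3 knockouts (32) and the zero counts of the TRAF2 knockout stayed within 1.5 times under all alternatives, the zero counts at 0. With the replicate number as a block they were 33 and 26 for the TRAF3 knockout on chow and its diet dependence. TRAF3 knockout against control on HFD (1) gave 0 with arrays centred on their medians and with only the groups compared, and 2 with quantile normalization again, dim genes left out, the replicate block, and the lymphocyte or the duct score, while without both lymphocyte-rich arrays Rsad2 was lost and 1 other gene passed as lower. TRAF3 against TRAF2 knockout gave 2 on chow (25) and 1 on HFD (0) with only the groups compared, 9 on chow with the duct score, and 1 on HFD without both lymphocyte-rich arrays. HFD against chow in controls (1) gave 0 under median centring, quantile normalization, only the groups compared, the sex score and the lymphocyte score, 2 under trend and robust eBayes, the dim filter, the replicate block and the duct score, and 3 without both lymphocyte-rich arrays. HFD against chow in TRAF2 knockouts (2) gave 5 with the duct score. The causes were not tested. Leaving out each array in turn gave 30 to 35 for TRAF3 knockout against control on chow, 0 to 2 on HFD, 12 to 34 for TRAF3 against TRAF2 knockout on chow, 0 to 1 on HFD, 0 to 5 for HFD in controls, 1 to 4 in TRAF2 knockouts, 29 to 33 in TRAF3 knockouts and 18 to 29 for diet dependence. In chow TRAF3 knockouts Tor3a turned, from 0.14 to -0.060 without chow control 1, and was 0.33 without chow control 2. Signals below the array median limit the folds of Mx1, Ifi204 and the like.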
